A study of Brassica oleracea var. italica with 48 samples.

Results

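The 100 genes described here were at least doubled in the roots of broccoli (Brassica oleracea var. italica) on each of 3 sampling days after potassium was withdrawn and differed by less than a set bound between starved and control leaves on the last of these days. They were chosen from the 60586 features of the deposited expression table by their TPM (transcripts per 1000000), a unit that scales reads by length and by the total of the library. For each day, d is the log2 of the mean TPM of the starved libraries plus 1, minus the log2 of the mean TPM of the control libraries plus 1. A gene was a member if d in roots was at least 1 on days 1, 3 and 6, if the lowest starved root library lay above the highest control root library on each of these days, if at least 1 of the 12 control root libraries reached 1 TPM, and if d in leaves on day 6 lay between -0.5 and 0.5. The root differences and the day 6 leaf difference are therefore given as descriptions, with no test.

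All plants were wild type. Starved plants stood in medium without potassium for 1, 3 or 6 days, and control plants stayed in medium with 2 mM K2SO4, in which both had been kept for 7 days after 6 days on plates, under 16 h of light and 8 h of darkness. Roots and leaves were sampled, and each of the 12 groups has 4 libraries with the letters a, b, c and d, for a total of 48. The labels do not say whether the 4 libraries of a group came from separate plants or pools, so the p-values given for leaves measure only the spread between these libraries, which may be technical.

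Potassium is the most abundant cation in plant cells, where it sets osmotic pressure, membrane voltage and the activity of many enzymes. Roots take it up through channels when the supply is ample and through high-affinity transporters of the HAK/KUP/KT family when it is scarce, and the genes of such transporters are commonly transcribed more strongly in starved roots. Signals of low potassium in roots are known to involve reactive oxygen species, calcium, ethylene and jasmonate. None of the IDs of the deposited table matched the gene table used here, so the members are given by ID, with no function, and none was checked against a transporter, a pathway or a root marker.

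Read depth, recovered from the steps of the TPM values, was 13.8 to 19.7 for root libraries and 18.4 to 20.2 for leaf libraries, in units of 1000000 reads. A total of 5 libraries varied more than the others about their group means over all genes, with limma array weights (relative precisions) under 0.2: starved root day 3 d (0.167), control root day 1 a (0.0817), starved leaf day 1 d (0.0967), control leaf day 1 b (0.178) and control leaf day 3 a (0.194). Without them the rule found 105 genes, 93 of them among the 100. The rule used leaves of day 6 only, so only the root libraries among the 5 could alter this count.

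Together the 100 genes took up several times more of the root transcriptome in starved plants than in controls, by an amount that was larger on day 6. Their summed level was 4412 ± 605 TPM in starved roots and 1367 ± 163 TPM in control roots on day 1 (SD, n = 4 each), a ratio of 3.23. On day 3 the sums were 5330 ± 585 TPM in starved roots and 1417 ± 173 TPM in control roots, a ratio of 3.76. On day 6 they were 5658 ± 503 TPM in starved roots and 936 ± 104 TPM in control roots, a ratio of 6.04. The lowest starved library of any day (4038 TPM) lay far above the highest control library (1602 TPM). The 5 genes with the highest starved level held 36.7% of the starved sum, and without them the ratios were 3.21, 3.33 and 5.91. In such bulk samples, more RNA of these genes per cell and more cells that express them cannot be told apart.

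**Figure D1:**
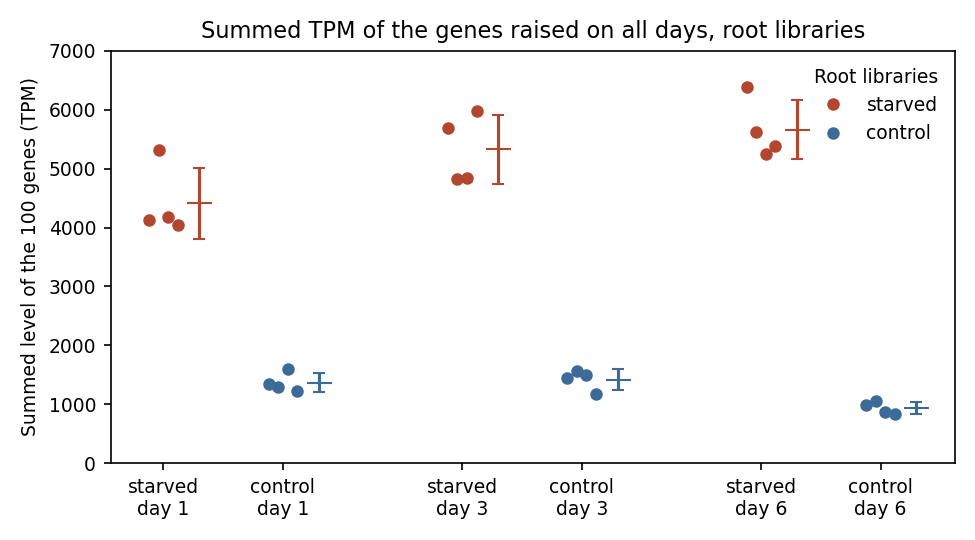
Summed TPM of the 100 genes in each of the 24 root libraries (points), with the mean and SD of the 4 libraries of a group (bars beside them). Starved libraries sit between 4038 and 6377 TPM and control libraries between 842 and 1602 TPM; starved day 1 b, at 5317 TPM, stands apart from the other starved libraries of its day.

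Most members were genes of low level in control roots. Averaged over the 12 starved root libraries, 65 of the 100 lay at 10 TPM or more, 15 of them at 100 TPM or more, with a median of 18.0 TPM and a range of 2.85 to 748 TPM. Over the 12 control root libraries, 24 lay at 10 TPM or more and 17 under 1 TPM, with a median of 3.20 TPM and a range of 0.326 to 106 TPM. The features tested in roots were the 29422 with at least 1 TPM in at least 4 root libraries. Their median control level was 9.67 TPM, and 49.1% of them lay at 10 TPM or more in control roots. The rule took genes whose control libraries lay below their starved ones, and a member could pass this filter through its starved libraries alone. The control levels of members and of all features are thus not a like comparison.

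For days 1, 3 and 6 the median d was 1.59, 1.55 and 2.13, against 0.09, -0.03 and 0.02 over all features tested. The median ratio of starved to control mean TPM was 3.66, 3.91 and 6.77. A d of 2 or more was reached by 22 genes on day 1, by 27 on day 3 and by 53 on day 6, and 13 reached it on all 3 days. Among all features tested, a d of at least 1 with no overlap between starved and control libraries was found for 1.37% on day 1, 1.29% on day 3 and 3.53% on day 6. This is the background from which the rule took its members. Across days, 85 of the 100 had every one of the 12 starved root libraries above every one of the 12 control root libraries, as had 0.833% of the features tested. The other 15 overlapped only between different days.

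**Figure D2:**
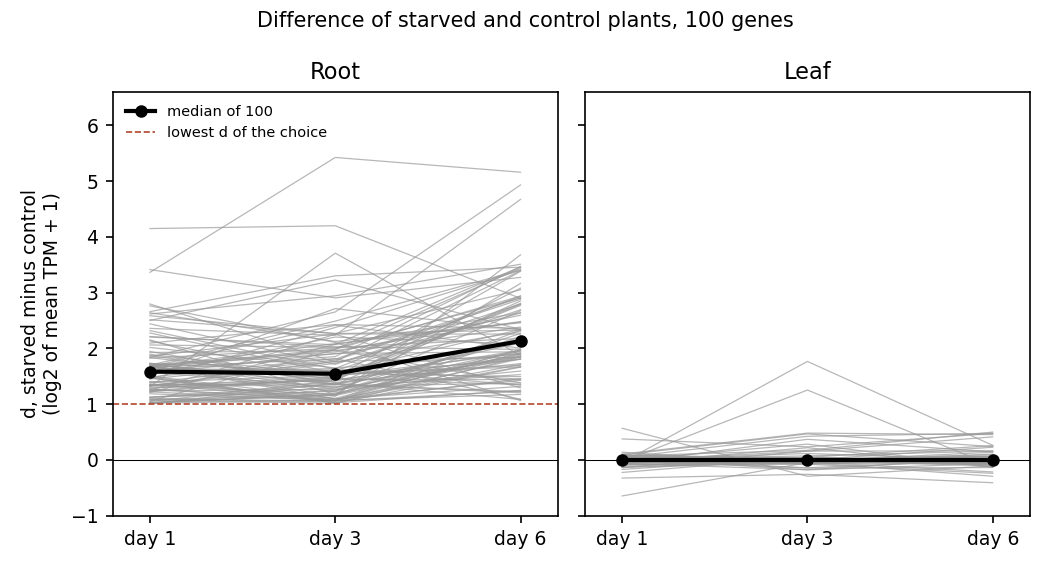
The difference d (starved minus control, log2 of mean TPM + 1) of each of the 100 genes in roots (left) and leaves (right) on days 1, 3 and 6 (grey lines), with the median of the 100 (black). In roots every line lies above the lowest d allowed, 1 (dashed), and the median is 1.59, 1.55 and 2.13; in leaves most lines lie near 0, with d up to 1.77 on day 3.

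Bo1g021930 was the member with d of 3 or more on every day. In starved roots it had 6.85, 62.9, 58.2 and 55.1 TPM on day 1, 129, 138, 320.0 and 168 TPM on day 3, then 92.2, 164, 99.6 and 238 TPM on day 6. In control roots it had 1.44, 3.94, 5.63 and 3.15 TPM on day 1, 2.94, 4.19, 1.93 and 4.59 TPM on day 3, then 2.75, 3.69, 3.37 and 2.90 TPM on day 6. Its control level hardly differed between days, while its starved level on day 3 and day 6 lay above all 4 starved libraries of day 1, among which library a stood far below the other 3. Its d was 3.36, 5.43 and 5.16. The ratio of mean TPM was 12.9 on day 1, 55.3 on day 3 and 46.7 on day 6.

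The next largest lowest d was that of Bo8g101460, at 3.41, 2.91 and 3.27. It had 36.9, 29.3, 28.8 and 23.97 TPM in starved roots on day 1, against 2.98, 2.60, 1.11 and 0.841 TPM in control roots. On day 3 it had 32.7, 20.1, 29.0 and 49.7 TPM in starved roots, against 2.52, 3.96, 5.50 and 2.09 TPM in control roots. On day 6 it had 46.2, 52.2, 40.2 and 20.9 TPM in starved roots, against 4.56, 2.01, 2.53 and 3.81 TPM in control roots. This gene stood at much the same distance from its controls on all days, with starved libraries that overlapped between days.

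The most abundant member in starved roots was Bo2g104950, whose d also grew most with time, to 1.84, 2.65 and 4.93 on days 1, 3 and 6. In starved roots it had 438, 599.9, 424 and 563 TPM on day 1, 826, 819, 511 and 1180.3 TPM on day 3, then 1054, 881, 968 and 712 TPM on day 6. In control roots it had 181, 96.7, 186 and 99.3 TPM on day 1, 158, 135, 136 and 97.3 TPM on day 3, then 43.4, 21.0, 33.7 and 16.4 TPM on day 6. Its starved level was higher on day 6 than on day 1 in every library, and its control level lower. Bo2g104910, with an ID number close by on chromosome 2, showed the next largest gain, with d of 2.36, 2.23 and 4.67. It had 74.1, 102, 57.8 and 78.9 TPM in starved roots on day 1, against 9.16, 13.3, 23.4 and 11.9 TPM in control roots. On day 3 it had 102, 96.7, 63.8 and 98.1 TPM in starved roots, against 20.2, 17.8, 20.8 and 14.7 TPM in control roots. On day 6 it had 115, 103, 114 and 104 TPM in starved roots, against 4.48, 3.40, 2.62 and 2.81 TPM in control roots. For this gene the low control libraries of day 6 made up most of the gain.

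Bo3g024590, the second in level in starved roots, averaged 385 TPM over the starved root libraries and 76.3 TPM over the control ones, with d of 1.503, 2.72 and 2.33. It spread widely, at 73.1 to 227 TPM in starved and 36.7 to 60.7 TPM in control roots on day 1, and at 183 to 603 TPM in starved and 40.6 to 94.0 TPM in control roots on day 3. Bo3g154320 had the highest control level of all members, 106 TPM against 308 TPM in starved roots, and d of 1.12, 1.296 and 2.16. Its control library a of day 1 (60.5 TPM) lay well below the other 3 (137 to 146 TPM).

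**Figure D3:**
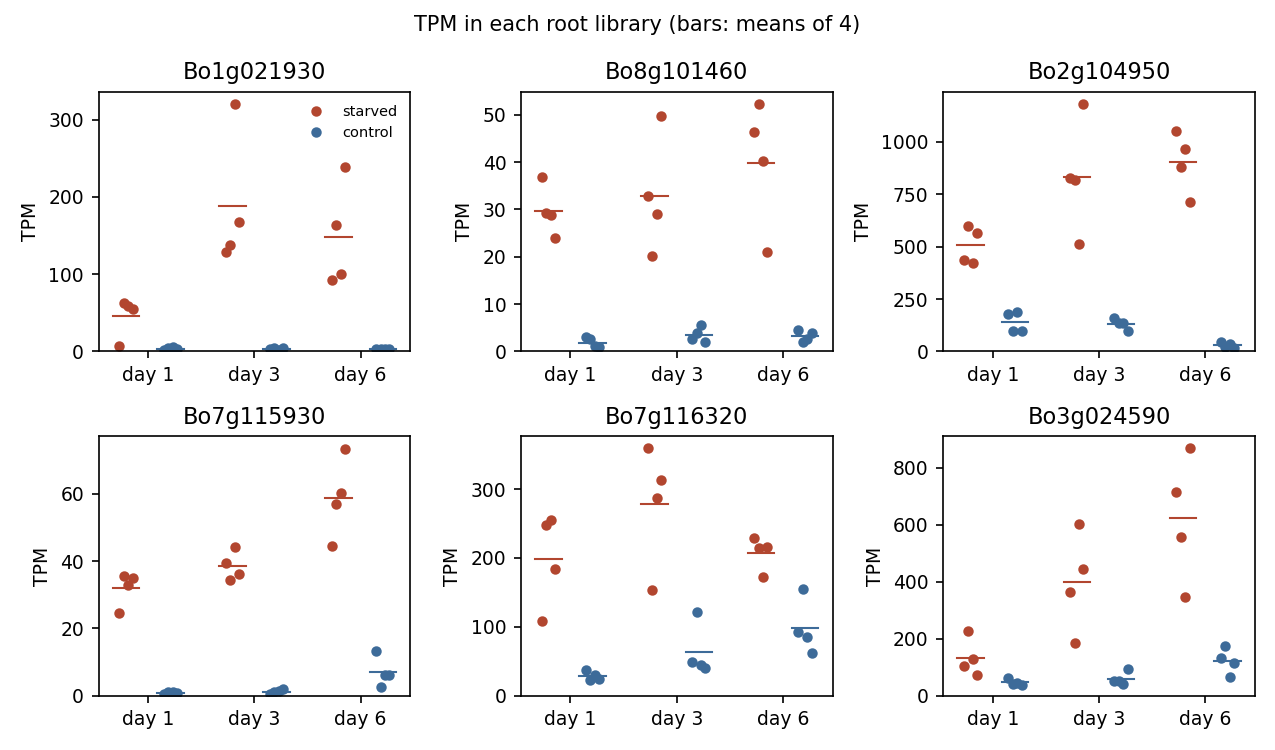
TPM of 6 of the 100 genes in each root library, starved left of control for each day, with the mean of 4 libraries as a bar; each panel has its own linear axis from 0. The control level of Bo2g104950 is lowest on day 6 while that of Bo7g115930, Bo7g116320 and Bo3g024590 is highest then, and Bo1g021930 has a low starved library on day 1 (6.85 TPM).

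The difference was larger on day 6 than on day 1 for 78 of the 100 genes, by 1 or more for 27. It was smaller on day 6 for 22, by 1 or more for 2. Between neighbouring sampling days it was larger on day 3 than on day 1 for 54 genes and larger on day 6 than on day 3 for 78, and it stayed within a range of 0.5 over the 3 days for 26. The largest d fell on day 6 for 67 genes, on day 3 for 16 and on day 1 for 17. Both the starved and the control levels bore on the gain by day 6. Between day 1 and day 6 the median change, in log2 of mean TPM + 1, was 0.12 in starved roots and -0.39 in control roots. Over all features tested it was -0.15 in starved roots and -0.09 in control roots, so relative to all features the members stood 0.27 higher in starved roots and changed by -0.29 in control roots. After rescaling by medians of ratios, a setting added after the data were seen, these relative changes were 0.29 and -0.33. Among the 78, the starved level was higher and the control level lower on day 6 than on day 1 for 31, both were lower for 29 and both higher for 18. The 27 genes with the largest gains had a median change of 0.42 in starved roots (20 of 27 higher on day 6) and of -1.09 in control roots (25 of 27 lower). The rule set a lower bound on each d from these same libraries. The gain in d is the starved change minus the control change, so choosing genes by their gain favours this pattern. The changes of level are a description and were not tested.

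**Figure D4:**
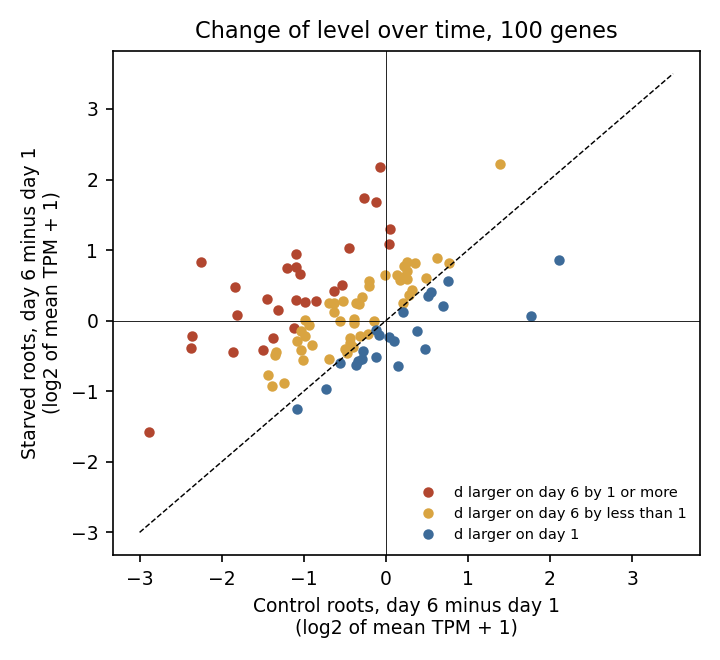
Change of level between day 1 and day 6 (log2 of mean TPM + 1) in starved roots (vertical) against control roots (horizontal), 1 point per gene; points above the dashed line of equal change have a larger d on day 6. The 27 genes with a gain of 1 or more (red) lie mostly left of 0 on the control axis, with a median of -1.09, and the 2 genes with d larger on day 1 by 1 or more (the rightmost points) had a higher control level on day 6.

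The 2 genes whose d was smaller on day 6 by 1 or more were Bo7g116320 and Bo7g115930, on the same chromosome. Bo7g115930 had the largest d of any member on day 1, 4.15, followed by 4.20 and 2.90. Its starved libraries had 24.6, 35.5, 33.0 and 34.9 TPM on day 1, 39.6, 34.5, 44.1 and 36.3 TPM on day 3, then 44.4, 57.0, 60.19 and 73.5 TPM on day 6. Its control libraries had 0.361, 1.17, 1.09 and 0.815 TPM on day 1, 0.508, 0.9496, 1.29 and 1.87 TPM on day 3, then 13.4, 2.53, 6.00 and 6.17 TPM on day 6. The starved level was thus highest on day 6, and the difference narrowed with the higher control libraries of that day. For Bo7g116320 d was 2.76, 2.11 and 1.06. It had 108, 248, 256 and 184 TPM in starved roots on day 1, against 36.7, 22.3, 30.23 and 24.4 TPM in control roots. On day 3 it had 359.8, 154, 287 and 313 TPM in starved roots, against 49.4, 121, 44.7 and 39.6 TPM in control roots. On day 6 it had 229, 214, 173 and 215 TPM in starved roots, against 92.3, 156, 85.1 and 62.6 TPM in control roots. Here too the control level was higher on later days.

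A peak on day 3 was largest for Bo9g059170, with d of 1.31, 3.71 and 1.88. It had 1.65, 2.93, 1.97 and 1.84 TPM in starved roots on day 1, against 0.301, 0.338, 0.173 and 0.170 TPM in control roots. On day 3 it had 22.7, 13.1, 14.7 and 24.03 TPM in starved roots, against 0.509, 1.03, 0.365 and 0.101 TPM in control roots. On day 6 it had 4.37, 4.98, 3.70 and 4.90 TPM in starved roots, against 0.573, 0.575, 0.391 and 0.435 TPM in control roots. The starved libraries of the 3 days did not overlap, and only 1 of its control root libraries reached 1 TPM.

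The spread between starved libraries of a day was moderate for most members, with a coefficient of variation (mean of the 3 days) of 26.0% at the median and over 50% for 2 genes. It was lowest for Bo22748s010 (12.4%) and Bo7g096890 (12.8%). Bo22748s010 had 32.0, 38.4, 35.7 and 34.9 TPM in starved roots on day 1, against 12.3, 15.6, 16.4 and 15.4 TPM in control roots, and d of 1.19, 1.07 and 1.17. Bo7g096890 ranged from 66.4 to 111 TPM over the starved root libraries and from 16.9 to 37.7 TPM over the control ones, with d of 1.73, 1.27 and 1.86. It was highest for Bo3g184780 (52.1%) and Bo1g021930 (50.1%). Bo3g184780 had 6.47, 2.84, 7.59 and 2.13 TPM in starved roots on day 1, against 1.75, 1.66, 1.16 and 1.98 TPM in control roots, where the 2 groups all but touch.

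Some libraries stood off from their group for most members. In starved roots, 90 of the 100 lay above their group mean in day 1 b, 82 in day 3 a and 85 in day 6 a, against 57.5%, 60.18% and 51.1% of all features tested. In control roots, 15 of the 100 lay above their group mean in day 3 d, against 43.7% of all features tested. The correlation of the deviations of 2 members from their group means had a median of 0.137 over 4950 pairs and passed 0.8 for 58 pairs. No such value was computed over all features, so nothing particular to these genes is read from these pairs. The number of members that exceeded 1.5 times the next library of their group, with at least 2 TPM, ranged from 0 to 11 over the 24 root libraries. It was 11 in starved day 1 b, control day 1 c and control day 3 b, where 0.850%, 0.860% and 0.544% of all features tested did so. In starved day 6 d it was 2, against 5.97% of all features tested, and in control day 1 a it was 9, against 5.46%. Of the 5 such members in control day 6 b, 4 were also among the 11 of control day 3 b. A library letter does not tie libraries of different days to 1 plant in the labels.

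By ID, 94 members lay on the 9 chromosomes, from 7 on chromosome 1 to 16 on chromosome 4, and 6 on unplaced scaffolds, which held 3.26% of all features tested. As a share of the features tested on a chromosome, members ranged from 0.175% on chromosome 3 to 0.504% on chromosome 4. Their coding length, recovered with the reads, had a median of 982.5 bases and ranged from 210 to 2691 bases, against a median of 1038 bases over all features tested. A total of 10 members formed 5 pairs with IDs next to each other, which are numbered in steps of 10. The pairs were Bo1g039940 and Bo1g039950, Bo2g119300 and Bo2g119310, Bo4g195610 and Bo4g195620, Bo7g065360 and Bo7g065370, and Bo9g059100 and Bo9g059110. Whether the members of a pair are copies of each other that share reads was not tested, as no sequences were used here.

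Within a pair the levels could differ widely. Bo7g065370 had 62.0, 106, 71.0 and 67.1 TPM in starved roots on day 1, against 14.96, 12.01, 12.4 and 11.4 TPM in control roots, while Bo7g065360 had 7.66, 12.5, 8.79 and 8.79 TPM in starved roots, against 1.43, 1.55, 1.64 and 1.37 TPM in control roots. Bo9g059100 had 24.7, 30.6, 24.04 and 24.6 TPM in starved roots on day 1, against 4.50, 4.002, 3.05 and 3.35 TPM in control roots, while Bo9g059110 had 4.61, 5.79, 4.84 and 5.92 TPM in starved roots, against 2.53, 0.587, 0.300 and 0.491 TPM in control roots. The d of the 2 genes of a pair was closest for Bo4g195610 (1.23, 1.46 and 1.35) and Bo4g195620 (1.40, 1.10 and 1.32), and farther apart for Bo1g039940 (2.59, 2.27 and 3.05) and Bo1g039950 (1.65, 1.54 and 1.67). Of the 176 features next to a member that were not members themselves, 89 were tested in roots. With limma, the number of the 89 that were higher in starved roots was 10 (11.2%) for day 1, 10 (11.2%) for day 3 and 17 (19.1%) for day 6, at a Benjamini-Hochberg adjusted p under 0.05, against 4.15%, 4.0% and 9.0% of all features, and 3, 1 and 2 were lower, against 4.25%, 3.69% and 6.6% of all features. These are counts of neighbouring features that share libraries, and their excess was not tested.

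In leaves most members were at or near 0. The leaf bound of the rule favours such genes, since a gene that is silent in leaves always meets it. Alone, the bound kept out 17 genes, of which 7 averaged under 1 TPM in control leaves. Over the 12 control leaf libraries 84 of the 100 averaged under 1 TPM, against 26.3% of all features tested in roots, and 73 averaged under 0.1 TPM, against 11.2%. A total of 16 had no read in any of the 24 leaf libraries. Bo01293s020 was among these 16. In starved roots it had 19.8, 38.2, 18.6 and 19.7 TPM on day 1, against 6.12, 2.13, 2.66 and 1.43 TPM in control roots. Bo01010s010, at 0 in all control leaf libraries and at 0.0383 TPM in 1 starved leaf library, had 23.0, 20.3, 23.1 and 18.6 TPM in starved roots on day 6, against 1.70, 0.972, 1.13 and 0.627 TPM in control roots. For most members d in leaves was thus small because both levels were near 0.

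**Figure D5:**
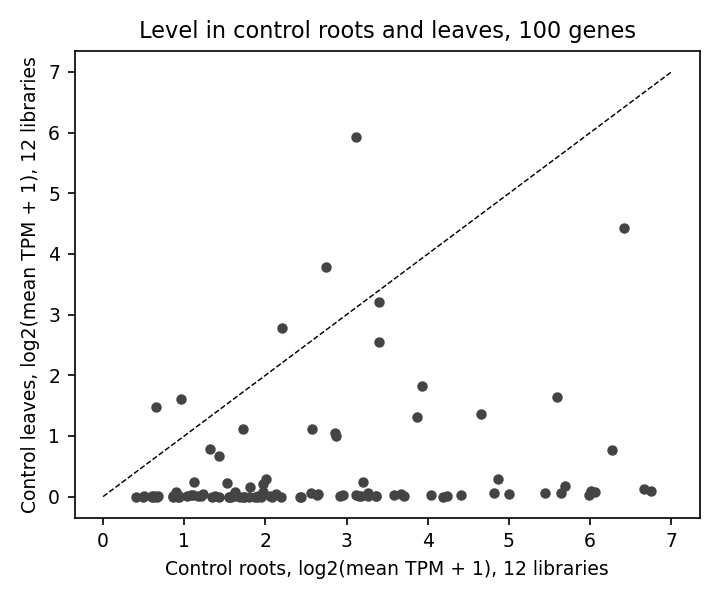
Level of each of the 100 genes in control leaves (vertical) and control roots (horizontal), as log2 of the mean TPM of 12 libraries plus 1, with the line of equal level dashed. Most points lie along 0 on the leaf axis, and 5 lie above the line, with Bo7g097500 (59.7 TPM in control leaves) the highest.

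The other 16 members averaged 1 TPM or more in control leaves, and 5 members had a higher mean in control leaves than in control roots. The highest in leaves was Bo7g097500, at 59.7 TPM over the 12 control leaf libraries and 7.64 TPM over the 12 control root libraries. It had 48.5, 48.1, 47.4 and 38.3 TPM in starved roots on day 1, against 15.1, 11.2, 17.5 and 26.4 TPM in control roots. On day 6 it had 27.6, 12.7, 7.11 and 11.2 TPM in starved roots, against 1.28, 0.688, 0.868 and 3.23 TPM in control roots. Its level in roots was lower on day 6 than on day 1 in both treatments, and more so in control roots. In leaves it had 42.8, 39.4, 42.5 and 33.4 TPM in starved plants on day 1, against 41.8, 46.1, 39.9 and 32.6 TPM in control plants, which overlap. Bo3g010180 was next in leaves, at 20.6 TPM in control leaves and 84.4 TPM in control roots, with 201 TPM on average in starved roots.

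Leaves of days 1 and 3 were not used in choosing the genes, so starvation could be tested there. The leaf bound on day 6 may still favour genes with little response on these days, so a lack of calls carries little weight. Only 18 members passed the filter of 1 TPM in 4 leaf libraries, and the other 82, of which 2 reached 1 TPM in some leaf library, had no test. On day 1 limma called 0 of the 18 (2 at an unadjusted p under 0.05), and none of 25098 features (0.0%, with 627 at an unadjusted p under 0.05). The voom fit of the recovered reads also called 0. The median log2 fold change of the 18 was -0.03, against -0.10 over all features tested. On day 3 limma called 0 of the 18 (3 at an unadjusted p under 0.05), against 14 of 25098 features (0.0558%), and voom called 0 of the 18. The median was 0.16, against 0.06 over all. On day 3 replicates of the same letter deviated together, and with the letter as a block 262 of 23367 features (1.12%) and 0 of 16 members were called. The difference between the day 3 and day 1 effects was called for 0 of 25098 features. A miss of the threshold does not show that these genes were at the same level in starved and control leaves.

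None of the largest leaf fold changes of members passed the test. On day 1 Bo2g002620 had 2.15, 6.75, 8.77 and 7.06 TPM in starved leaves, against 10.36, 15.2, 5.16 and 10.25 TPM in control leaves, a log2 fold change of -0.68 (SE 0.32, adjusted p = 0.986 with limma). Bo2g093440 had 2.37, 1.58, 2.33 and 0.949 TPM in starved leaves, against 0.823, 0.677, 0.973 and 1.11 TPM in control leaves, a log2 fold change of 0.54 (SE 0.18, adjusted p = 0.986 with limma). In both genes the starved and control libraries overlapped. On day 3 Bo9g152070 had 3.498, 5.57, 4.24 and 29.6 TPM in starved leaves, against 0.939, 3.09, 2.62 and 3.14 TPM in control leaves, a log2 fold change of 1.33 (SE 0.44, adjusted p = 0.558 with limma). Bo6g124520 had 2.71, 3.43, 2.64 and 16.7 TPM in starved leaves, against 0.949, 2.12, 2.43 and 2.86 TPM in control leaves, a log2 fold change of 0.93 (SE 0.36, adjusted p = 0.7999 with limma). These values depended on the fit. With array weights the adjusted p with limma was 0.0508 for Bo9g152070 and 0.143 for Bo6g124520. With the letter as a block it was 0.125 for Bo9g152070 and 0.203 for Bo6g124520.

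Starved leaf library d of day 3 was high for both of these genes, and all 4 starved libraries of Bo9g152070 lay above its controls. Without that library their log2 fold changes were 0.70 for Bo9g152070 and 0.39 for Bo6g124520. In the same library Bo2g104950, the most abundant member in starved roots, had 0.139 TPM. The ratio of Bo6g124520 to Bo9g152070 was 0.503 to 1.299 over the 24 leaf libraries and 1.82 to 5.82 over the 24 root libraries, so the ranges did not overlap. Why starved leaf library d of day 3 was high for these 2 genes was not tested. In roots both genes had their largest d on day 6. Bo9g152070 then had 82.5, 90.4, 45.0 and 76.9 TPM in starved roots, against 6.24, 10.42, 6.90 and 7.76 TPM in control roots. Bo6g124520 had 214, 226, 90.7 and 217 TPM in starved roots, against 22.0, 28.6, 20.6 and 22.9 TPM in control roots.

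The rule did not use the change in leaves between day 1 and day 3. Depending on the fit, 0 to 5 members were called for it. In starved leaves limma called 0 of the 18 (7 at an unadjusted p under 0.05), against 582 of 25098 features (2.32%, with 3763 at an unadjusted p under 0.05), with a median log2 fold change of 0.38 against 0.17 over all. The voom fit called 1 of the 18. In control leaves limma called 0 of the 18, against 324 of 25098 features (1.29%). At an unadjusted p under 0.05 there were 7 of the 18, against 2858 features (11.4%). The median of the 18 was 0.08, against 0.01 over all. The voom fit called 0. With array weights, which down-weight the libraries named above, 3 of the 18 were called in starved leaves, against 1754 of 25098 features (6.99%), and 5 in control leaves, against 2603 of 25098 features.

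The edge of the rule was gradual. Just inside lay Bo8g042200, with d of 1.01, 1.38 and 1.09, and Bo3g010180, with 1.07, 1.02 and 1.84. Bo8g042200 had 42.3, 45.5, 52.8 and 47.9 TPM in starved roots on day 1, against 32.4, 19.3, 21.2 and 19.0 TPM in control roots. Just outside lay Bo3g021760, with d of 1.09, 0.99 and 2.24, and Bo9g045370, with 1.05, 1.01 and 0.99. A further 226 features failed only the threshold on d and 19 only the separation of libraries. The minimum in control roots alone kept out 33 features, with median d of 1.45, 2.07 and 1.95. The leaf bound alone kept out 17, of which 15 were higher and 2 lower in starved leaves on day 6, with median root d of 1.46, 1.32 and 1.57.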

How the data were processed

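Per the labels' protocols, root and leaf RNA was column-purified, cleared of DNA and read on a DNBseq platform. The authors deposited 1 table of TPM for 60586 features in 48 libraries, each of which sums to 1000000. The tools STAR 2.7.10a, cutadapt 4.1, FastQC 0.11.9 and DESeq2 appear in the submitters' processing notes, with no role; the build, annotation and counter were not given in the sources used here. None of the IDs matched the 53125 genes of the gene table used here, so lists of pathways and markers were not analysed. The values are whole multiples of 1 read per feature, and whole reads were recovered for each of the 44911 features seen in at least 2 libraries (100% of values within 0.05 reads). Tests used limma-trend (limma 3.58.1, R 4.3.3) on log2(TPM + 1), a scale that understates changes of low features, over all features with 1 TPM in at least 4 libraries of a tissue, with Benjamini-Hochberg adjustment and a threshold of 0.05. The recovered reads served only voom and a version of the rule on reads scaled to the library total. The recovery and the test were tried on simulated data. In the simulation of the test all features had the same spread setting, and libraries were not made to differ in precision or by letter. Only features with many reads were given a change, so it does not cover the members near 0 in leaves. Replicate letters paired the libraries only for leaves on day 3 (correlations of same-letter deviations 0.215 to 0.696), a hint from the data, not the labels. The members, lists and naming rule were chosen with earlier results of these data known. Genes named are up to 2 at the extremes of d, level, change over days, leaf level, spread and leaf fold change, those at the edge of the rule, and pairs of adjacent IDs.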

Additional observations from a re-analysis of the deposited data

Results flagged for a closer look

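A library was marked where its gap to the nearest of the 4 libraries of a group as a share of the group's range passed Dixon's critical value, which chance gives for about 1 in 20 groups. This held in 22 of 176 groups examined (the summed level in each root group and the named genes), where that rate would give 8.8. Some of the named genes were picked for a wide spread or a large leaf fold change, and the groups share libraries. The 8.8 is therefore not a fair expectation here, and no excess is read from it. No explanation of these values was tested.

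In starved roots on day 1, library b was high for the summed level of the 100 genes (5317 TPM, others 4038 to 4171 TPM), and for Bo01293s020 (38.2 TPM), Bo2g119300 (20.8 TPM) and Bo9g059100 (30.6 TPM). Library a was low for Bo1g021930 (6.85 TPM) and library d for Bo7g097500 (38.3 TPM). On day 3, starved library c was low for Bo2g104910 (63.8 TPM) and library b high for Bo3g184780 (8.53 TPM). On day 6, starved library c was low for Bo2g119310 (5.55 TPM).

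In control roots on day 1, library a was low for Bo3g154320 (60.5 TPM) and high for Bo8g042200 (32.4 TPM) and Bo9g059110 (2.53 TPM), and it is the library with the lowest array weight (0.0817). On day 3, control library b was high for Bo7g116320 (121 TPM), Bo9g059100 (17.1 TPM), Bo7g065360 (6.53 TPM) and Bo9g059110 (2.89 TPM), and library a low for Bo4g195620 (6.03 TPM). On day 6, control library b was high for Bo7g065370 (30.19 TPM), Bo4g195620 (12.6 TPM) and Bo9g059100 (10.5 TPM).

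In starved leaves on day 3, library d was high for Bo9g152070 (29.6 TPM, others 3.498 to 5.57 TPM) and Bo6g124520 (16.7 TPM, others 2.64 to 3.43 TPM).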

How the results depend on the processing

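The rule found 38 genes with a threshold on d of 1.5 and 243 with 0.5, against 100. It found 101 (80 of them members) with a pseudocount of 0.1, 85 (81) after rescaling by medians of ratios, 91 (81) on recovered reads scaled to the library total, 133 without the minimum in control roots, and 93 to 108 when 1 library at a time was left out. The leaf bound of 1 gave 109, and no leaf bound 117. The median root log2 fold change of the members, 1.61, 1.51 and 2.14 with limma, was 1.90, 1.89 and 2.74 with a pseudocount of 0.1. Leaving out 1 library gave 1.497 to 1.66 on day 1, 1.44 to 1.62 on day 3 and 2.04 to 2.16 on day 6, and the replicate block left the 3 medians at 1.61, 1.51 and 2.14 and called 0 members in leaves. For changes in leaves between day 1 and day 3, array weights called 3 of 18 members in starved leaves (against 1754 of 25098 features) and 5 in control leaves (against 2603). In starved leaves, 1 was called after rescaling and with voom, and 0 to 1 when 1 library was left out (1 without starved day 1 c or starved day 3 a). In control leaves 0 to 1 were called (1 without control day 1 c). The causes were not tested. Rescaling moved the median of all features on root day 1 from 0.11 to 0.005, and in starved leaves between days 1 and 3 from 0.165 to -0.006. Genes near 0 in leaves cannot be compared at this depth.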
